A study of Arabidopsis thaliana with 47 samples.

Results

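The DEX response of empty-vector cells with nitrogen (N) was measured on 6 of the 47 arrays of the series, 3 with dexamethasone (DEX) and 3 without, chosen by their labels alone. All 22746 probe sets of the Affymetrix ATH1 array other than 64 control probe sets were compared. The cells were protoplasts, cells without walls, from roots of Arabidopsis thaliana Col-0 seedlings aged 10 days, released by wall-digesting enzymes over 4 h. They were transfected for 25 min with the empty vector pBeaconRFP_GR, left overnight, and sorted by the red fluorescent protein of the vector. The 6 arrays shared N, given as 20 mM KNO3 with 20 mM NH4NO3 for 2 h, and cycloheximide (CHX), which blocks protein synthesis. They differed in 10 µM DEX dissolved in ethanol against ethanol alone. The time in DEX, and whether the empty vector makes a free GR domain, are not given in the sources used here. Set beside them were 5 empty-vector arrays with 20 mM KCl in place of N (2 with DEX and 3 without) and 12 arrays of cells with N and CHX that carried pBeaconRFP_GR::bZIP1 (6 and 6). A further 6 arrays of GR::bZIP1 cells with N had no CHX (3 and 3).

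DEX is a synthetic glucocorticoid, an animal steroid hormone for which plants have no known receptor of their own. Fused to a glucocorticoid receptor (GR) domain, a transcription factor is held in the cytosol by chaperones until DEX binds and lets it enter the nucleus. Cells with the empty vector receive the same transfection, CHX and DEX but carry no such fusion, so they show which transcripts differ with DEX when the factor is absent. CHX limits the response to changes that need no newly made protein.

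Arrays of the same treatment correlated with Pearson's r of 0.993 to 0.997 over all probe sets (6 pairs), against 0.992 to 0.995 between treatments (9 pairs). Between 32.7% and 33.5% of the values of an array lay at the floor, the lowest value of the arm, 2.29 on the log2 scale. The root labels could hardly be checked: of the markers fixed for this, EXPA7 of root hair cells lay at 2.29, next to the floor, and AT1G62500 of cortex and endodermis lay at the floor on all 6 arrays, while other root markers had no named probe set. The mean level of 6 photosynthesis genes, markers of leaf cells, was 2.95 to 3.09 with DEX and 3.00 to 3.16 with ethanol, and 1 of the 6 had a mean level over 4. The labels call the arrays treatment replicates and do not say whether they came from separate preparations, so errors describe the spread between arrays.

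In empty-vector cells with N, 51 probe sets (0.224% of those tested) passed an adjusted p of 0.05 in limma, and these are named called here. Of these, 35 were higher with DEX (0.154%) and 16 lower (0.0703%), and 27 moved at least 2-fold. Among the named genes, the strongest rises were in AT2G47950 and its neighbour AT2G47960, in CML39 and AT1G21550, which encode calmodulin-like calcium sensors, and in AT3G22060, which encodes a secreted DUF26 protein. The called falls were smaller, and among the named ones the jumonji gene AT1G11950 fell most. Of the 51 probe sets, 24 have 1 locus in the name table (18 higher, 6 lower), 3 list several genes and 24 are not listed. A level is an average over the sorted cells, so more RNA per cell and more cells of a type cannot be told apart.

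In the groups of 3, all 51 called probe sets had every DEX array on one side of every ethanol array. That was also so for 1624 of all 22746 probe sets (7.14%), and 1230 (5.41%) had an unadjusted p under 0.05. For a single gene, an exact two-sided permutation test of 3 arrays against 3 cannot go below 0.10, so the calls rest on limma's estimate of the spread over the 11 empty-vector arrays. From those 6 arrays alone, limma called 8 probe sets, 5 of them among the 51. The count was 20, 25 or 29 without ethanol array 1, 2 or 3, and 53, 35 or 43 without DEX array 1, 2 or 3. Without the arrays numbered 1, 2 or 3 in all empty-vector groups it was 23, 3 or 8. Of the 24 named genes, AT2G47950 and AT4G17215 stayed called without those numbered 1, AT2G47960 without those numbered 2, and no named gene without those numbered 3. With same-numbered arrays fitted as blocks, 19 probe sets were called, 13 of them among the 51. All 51 kept their sign in each of these fits, but with groups that do not overlap the sign could not turn.

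**Figure D1:**
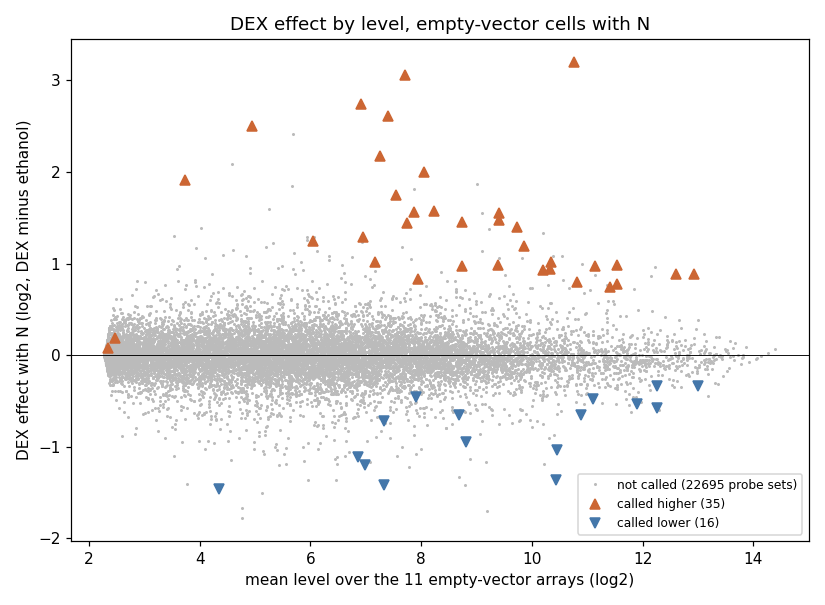
The DEX effect with N (DEX minus ethanol, log2) of each of the 22746 probe sets is plotted against its mean level over the 11 empty-vector arrays (log2). The 35 called rises reach 3.20 and the 16 called falls reach -1.47, while 71 grey points also lie at least 2-fold from 0.

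AT2G47950, with the largest called effect, and 2 further called genes have consecutive locus numbers on chromosome 2. On the ethanol arrays AT2G47950 had log2 levels of 9.31, 9.54 and 9.50, and with DEX 12.51, 12.80 and 12.64. The groups lay far apart, and the difference was 3.20 ± 0.19 (log2, SE; 9.21-fold; limma adjusted p = 0.00227). AT2G47960, which encodes a protein like a subunit of the TRAPP vesicle-tethering complex, had 6.29, 6.14 and 6.30 with ethanol and 8.79, 8.99 and 8.78 with DEX. Its arrays differed little within a group, and it rose by 2.61 ± 0.11 (6.1-fold; adjusted p = 0.000832). AT2G47970, which encodes an NPL4-like protein of the kind that helps extract ubiquitin-tagged proteins, had 9.34, 9.14 and 9.25 with ethanol and 10.38, 10.62 and 10.30 with DEX. It rose by 1.19 ± 0.10 (adjusted p = 0.00725), again with no overlap. AT2G47950 was called in 14 of 16 alternative fits, AT2G47960 in 14 and AT2G47970 in 11. AT2G47950 was not called without the arrays numbered 2 or 3 (adjusted p = 0.214 and 0.0914), and AT2G47960 without those numbered 1 or 3 (adjusted p = 0.0717 and 0.186). AT2G47970 lost the call without the arrays of any 1 number (adjusted p = 0.269, 0.13 and 0.292).

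A pair of loci with consecutive numbers on chromosome 5 rose as well. AT5G48530 had 6.93, 6.86 and 6.74 with ethanol and 8.38, 8.14 and 8.35 with DEX, a rise of 1.45 ± 0.12 (adjusted p = 0.00867). AT5G48540, which encodes a secreted protein with DUF26 domains, had 11.05, 11.08 and 10.99 with ethanol and 11.89, 12.06 and 12.12 with DEX, a rise of 0.98 ± 0.12 (adjusted p = 0.034). Neither gene's groups overlapped. In all, 5 of the 24 called loci had a called neighbour. Over all loci 0.181% were called, and how many of the 24 had a measured neighbour was not counted, so the 5 are given as a description.

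The response did not pass the test at the other named loci around them. Near the loci on chromosome 2, the 4 other measured loci had effects between -0.15 and 0.11, and near the pair on chromosome 5 the 7 others had effects between -0.65 and 0.41. Several of these lay at the floor, where no difference can be seen. AT5G48590, the third measured locus after the pair, had non-overlapping groups and an effect of 0.41 ± 0.21 (adjusted p = 0.991).

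**Figure D2:**
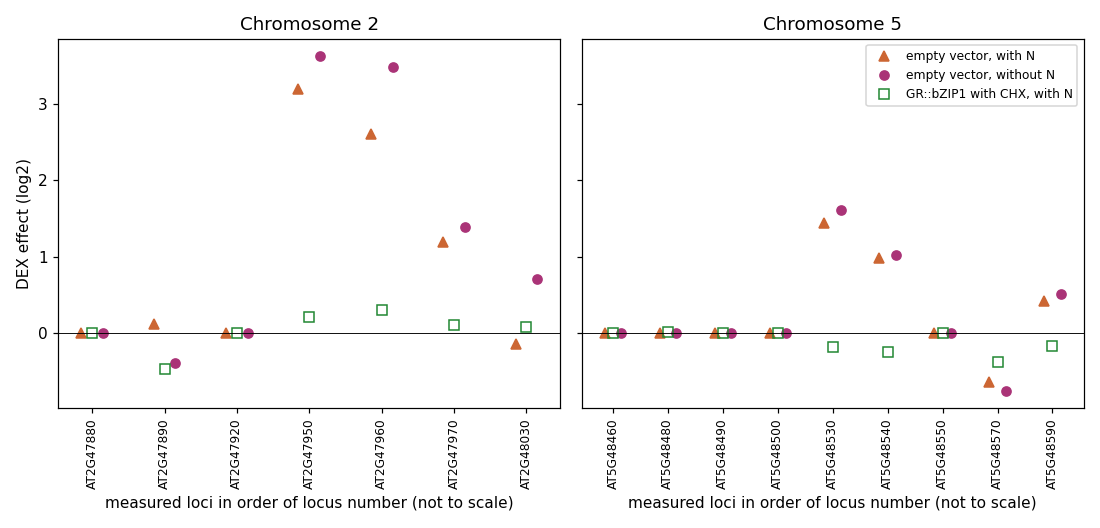
DEX effects (log2) of the measured, named loci around the called neighbours are shown in order of locus number, with triangles for the empty vector with N, filled circles without N and open squares for GR::bZIP1 with CHX and N. In the empty vector AT2G47950, AT2G47960 and AT2G47970 stand at 3.20, 2.61 and 1.19 with N, and AT5G48530 and AT5G48540 at 1.45 and 0.98, while in GR::bZIP1 cells these 5 lie between -0.25 and 0.30.

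Calcium sensors of the calmodulin-like family bind calcium through EF hands and relay calcium signals, such as those of touch, wounding and microbes. CML39 (AT1G76640) had log2 levels of 5.76, 5.72 and 5.38 with ethanol and 8.75, 8.31 and 8.03 with DEX. Its lowest DEX array lay far above its highest ethanol array, and it rose by 2.75 ± 0.22 (6.71-fold; adjusted p = 0.00725). AT1G21550 had 6.14, 6.89 and 5.89 with ethanol and 8.52, 8.62 and 8.31 with DEX, a rise of 2.18 ± 0.28 (4.52-fold; adjusted p = 0.0421). Ethanol array 2 lay above the other two, but below all DEX arrays.

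Of 14 calmodulin and calmodulin-like genes matched by symbol, synonym or locus, 8 with a mean level over 4, these 2 rose and none fell. The median effect of the 14 was -0.004, beside 0 over all loci, of which 0.181% were called. CML42 had 3.34, 4.22 and 4.34 with ethanol and 4.18, 5.44 and 5.71 with DEX. Its groups overlapped, though each DEX array lay above the ethanol array of the same number. The effect of 1.14 ± 0.60 did not pass (adjusted p = 0.991). CML38 (AT1G76650), an early wound gene whose locus number follows that of CML39, had an effect of -0.06 ± 0.08, between a mean level of 12.52 with ethanol and 12.46 with DEX. CML39 was called in 11 of 16 alternative fits and AT1G21550 in 6, and both lost the call without the arrays of any 1 number, with adjusted p of up to 0.317 and 0.693.

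Among the called rises were genes of secreted proteins. AT3G22060, whose product has the DUF26 domains of secreted cysteine-rich proteins, had 3.96, 3.45 and 3.67 with ethanol and 6.07, 6.02 and 6.48 with DEX. It went from near the floor to a middle level, by 2.50 ± 0.19 (5.64-fold; adjusted p = 0.00629). AT1G55210, a dirigent gene of the family that guides the coupling of lignan and lignin precursors, had 6.82, 6.96 and 6.59 with ethanol and 9.03, 8.74 and 8.61 with DEX, a rise of 2.00 ± 0.17 (4.01-fold; adjusted p = 0.00867). SBT3.3 (AT1G32960), a secreted subtilisin-like protease known from immune priming, had 3.19, 3.19 and 2.54 with ethanol and 4.68, 5.05 and 4.92 with DEX. It rose by 1.91 ± 0.23 (3.76-fold; adjusted p = 0.0316), and since its ethanol arrays lay near the floor the fold may be understated. None of the 3 genes was called without the arrays of 1 number.

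Other called rises were genes of signalling proteins. AT3G55470, which encodes a C2-domain protein of the kind that binds calcium and lipids, had 7.36, 7.05 and 7.30 with ethanol and 8.85, 8.73 and 8.80 with DEX, a rise of 1.56 ± 0.16 (adjusted p = 0.0191). AT5G35580, a receptor-like cytoplasmic kinase gene, had 9.91, 9.97 and 9.78 with ethanol and 10.79, 10.96 and 10.97 with DEX, a rise of 1.02 ± 0.08 (adjusted p = 0.00725). AT4G28400, a protein phosphatase 2C gene, had 10.51, 10.38 and 10.26 with ethanol and 11.24, 11.27 and 11.04 with DEX, a rise of 0.80 ± 0.09 (adjusted p = 0.0298). In each of these genes the groups stood apart. AT1G80450, which encodes a VQ-motif protein of the kind that binds WRKY factors, went from 12.50 ± 0.17 to 13.38 ± 0.02 (SD, n = 3 each).

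The ankyrin-repeat gene AT2G44090 rose by 0.83 ± 0.10, AT4G17215 by 0.97 ± 0.12 and AT1G70420 by 0.78 ± 0.09. AT5G49990, a gene of the xanthine and uracil permease family, was called at 0.08 ± 0.01, from 2.33 on each ethanol array to 2.43, 2.40 and 2.40 with DEX, so the whole difference lay next to the floor. The 18 named rises fell on levels from near the floor to over 13, and 3 of the 51 called probe sets had a mean level under 4.

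**Figure D3:**
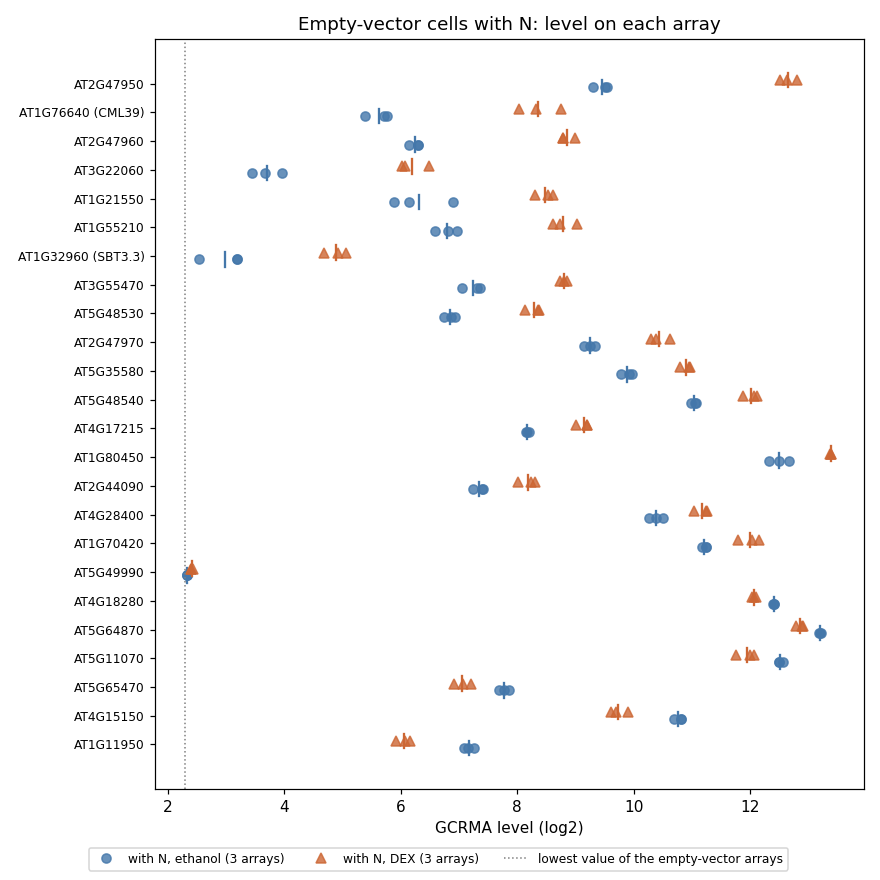
Each of the 24 named, called genes has its GCRMA level (log2) on the 3 ethanol arrays (circles) and the 3 DEX arrays (triangles) of empty-vector cells with N, with a tick at each group's mean and a dotted line at the lowest value of the empty-vector arrays. No gene's groups overlap, and AT5G49990 lies beside the dotted line.

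Of the 6 named falls, 2 were at least 2-fold. AT1G11950, which encodes a jumonji-domain protein of the histone demethylase type, had 7.15, 7.26 and 7.08 with ethanol and 6.16, 6.08 and 5.92 with DEX. All DEX arrays were lower, and it fell by 1.11 ± 0.10 on the log2 scale (2.16-fold lower; adjusted p = 0.00867). The glycine-rich protein gene AT4G15150 had 10.81, 10.82 and 10.69 with ethanol and 9.90, 9.60 and 9.70 with DEX, an effect of -1.03 ± 0.10 (adjusted p = 0.0133). AT5G65470, an O-fucosyltransferase gene, fell from 7.77 ± 0.09 to 7.06 ± 0.14 (SD, n = 3 each; adjusted p = 0.0191).

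AT5G11070 fell from 12.52 ± 0.04 to 11.94 ± 0.17. The flotillin-like gene AT5G64870, of a family of membrane scaffold proteins, fell from 13.20 ± 0.02 to 12.87 ± 0.07, and the glycine-rich gene AT4G18280 from 12.40 ± 0.02 to 12.07 ± 0.04 (SD, n = 3 each). These last 2 moved 1.26-fold at high levels with little spread. AT1G11950 was called in 10 of 16 alternative fits and AT5G64870 in 2.

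Of the 27 called probe sets that are not named here, 17 rose by 0.19 to 3.05 and 10 had effects from -0.46 to -1.47. Probe set 252958_at, second in size to AT2G47950 alone, had 6.41, 6.77 and 6.07 with ethanol and 9.51, 9.40 and 9.50 with DEX. Probe set 258239_at had 5.11, 4.82 and 5.27 with ethanol and 3.38, 3.58 and 3.85 with DEX, the largest called fall at -1.47 ± 0.15 (adjusted p = 0.0197). Neither had overlapping groups. A further 71 probe sets moved at least 2-fold without being called, 35 higher and 36 lower, with effects from -1.78 to 2.42.

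The gene lists were matched through gene symbols, their synonyms and fixed loci, so they hold part of each family, and counts of members refer to the matched loci alone. They held 195 named loci in 24 lists with a measured member, and of these lists the calmodulin-like list and the DUF26 list had a called member. The DUF26 list matched 1 locus, AT3G22060, and does not hold AT5G48540. Among the lists without one were stress and detoxification families. Over all loci 0.181% were called, so lists of these sizes would mostly hold no call, and their counts are given as a description. Of 7 matched WRKY genes, factors of defence and stress, none was called and the median effect was 0.13. WRKY22 had 11.29, 11.26 and 10.95 with ethanol and 11.85, 11.83 and 11.60 with DEX. Its groups did not overlap, and the effect of 0.60 ± 0.10 missed the threshold (adjusted p = 0.113). In empty-vector cells without N, 1 of the 7 WRKY genes was called higher, beside 0.317% of all probe sets.

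Of 9 matched late embryogenesis abundant and dehydrin genes, which protect cells in drying seeds, none was called. The share called over all loci was 0.181%, and the median effect of the 9 was -0.22. AT3G15670 of this family had 9.51, 9.21 and 9.33 with ethanol and 8.48, 7.79 and 8.38 with DEX. The groups stood apart, but the effect of -1.13 ± 0.21 did not pass (adjusted p = 0.152). AT1G33760, the 1 locus matched in the list of ERF genes, had 10.13, 9.58 and 9.64 with ethanol and 9.09, 8.48 and 8.30 with DEX (effect -1.16; adjusted p = 0.188). In empty-vector cells without N, 1 of the 9 late embryogenesis abundant and dehydrin genes was called lower, beside 0.149% of all probe sets.

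Among the matched members of families whose enzymes modify foreign compounds and steroids, none was called, beside 0.181% of all loci. These were 43 UDP-glycosyltransferase genes with effects from -0.58 to 0.73, 24 cytochrome P450 genes from -0.15 to 1.08 and 12 glutathione transferase genes from -0.34 to 0.27. Their medians were 0, 0 and 0.007. Of these, 18, 5 and 5 genes had a mean level over 4, and the others lay lower, where a difference is harder to see. Of 7 matched peroxidase genes none was called, and PRX52 had the lowest p of these 7 (effect 0.71 ± 0.16, adjusted p = 0.298). The peroxidase gene AT5G06730, which is not in that list and was named for its difference between vectors, had 8.80, 8.53 and 8.12 with ethanol and 10.02, 10.24 and 9.83 with DEX (1.55 ± 0.28, adjusted p = 0.146).

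Among 28 matched expansin and xyloglucan enzyme genes, which loosen cell walls, none was called, beside 0.181% of all loci. EXLA1 came nearest, with 12.57, 12.61 and 12.63 with ethanol and 12.13, 12.07 and 11.82 with DEX (-0.60 ± 0.08, adjusted p = 0.0535). The 2 measured genes of the list for brassinosteroids, the steroid hormones of plants, had effects of -0.15 and -0.01. Of 7 amino acid breakdown genes, 5 energy starvation genes and 9 autophagy genes, groups tied to the nutrient state, none was called, with medians of -0.09, -0.07 and 0.07.

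The response was then compared between cells with and without N, since the 5 empty-vector arrays without N are separate samples. Without N, 106 probe sets were called (0.466% of those tested; 72 higher, 0.317%, and 34 lower, 0.149%). Of the 51 called with N, 50 (98%) had the same sign without N, and 36 were called in both, which is 70.6% of the calls with N and 34.0% of those without. Both tests used 1 estimate of each probe set's spread over the 11 arrays, so calls in both are not independent. The same sign was shared by 57.5% of the 9488 probe sets with a mean level over 4. Across the 51 the effects correlated with Pearson's r of 0.969, given as a description over probe sets of the same 11 arrays.

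All 24 named genes had the same sign without N, and 18 were called there. AT2G47960 had 5.61, 6.05 and 5.82 with ethanol and 9.27 and 9.34 with DEX without N. The rise of 3.48 ± 0.13 exceeded the 2.61 ± 0.11 seen with N, but the difference of -0.87 did not pass (adjusted p = 0.572). AT1G55210 rose by 1.25 ± 0.19 without N against 2.00 ± 0.17 with N, and AT1G11950 had an effect of -0.42 ± 0.11 without N against -1.11 ± 0.10 with N. Neither difference passed (adjusted p = 1 and 0.726).

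The difference of the DEX effect with and without N was called for 8 probe sets (0.0352% of those tested; 4 with a higher effect with N, 0.0176%, and 4 with a lower one, 0.0176%), of which 6 had a mean level under 4 and 1 was among the 51. The named ones, AT1G23300, ETP2 (AT3G18910) and AT5G60610, had effects between -0.002 and 0.003 with N and of 0.31, 0.23 and 0.04 without N, all next to the floor. Leaving out either of the 2 DEX arrays without N raised the count from 8 to 536 or 544. Such a fit has 1 array in that group, which is assumed to vary like the others.

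**Figure D4:**
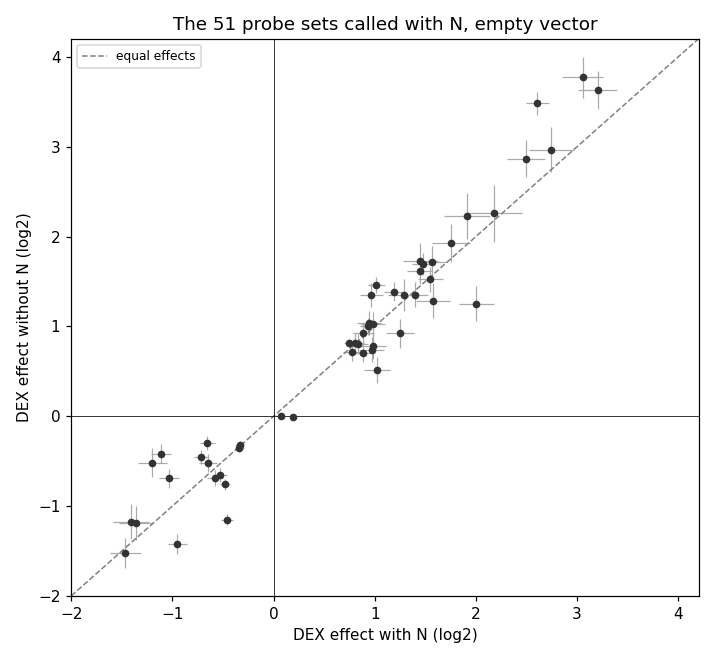
For the 51 probe sets called with N, the DEX effect without N (log2, 2 arrays against 3) is plotted against that with N (3 against 3), with 1 SE each way and a dashed line of equal effects. Of the 51 points, 50 lie in the quadrants of equal sign, and AT2G47960 lies above the line at 3.48 against 2.61.

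The same DEX treatment was given to cells that carried GR::bZIP1, with CHX and N, where 681 probe sets were called (2.99% of those tested), 389 higher (1.71%) and 292 lower (1.28%). Of these, 8 were also called in the empty vector, which is 1.17% of the 681 and 15.7% of the 51, with 6 in the same direction and 2 in the opposite one. Of the 35 rises of the empty vector, 15 had the same sign in GR::bZIP1 cells, with a median effect there of -0.10 against 1.25. Of the 16 falls, 14 had the same sign, with a median of -0.33 against -0.69. The same sign was shared by 50.5% of the 9488 probe sets with a mean level over 4. The empty-vector and GR::bZIP1 arms have different lowest values (2.287 and 2.298) and may have been summarised in separate runs, so effects within an arm are compared and not levels.

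AT2G47950 ranged from 8.97 to 10.04 (median 9.66) over 6 ethanol arrays of GR::bZIP1 cells and from 8.99 to 11.43 (median 9.65) over 6 with DEX. The groups overlapped, and only 1 DEX array was high. CML39 ranged from 5.12 to 7.45 (median 6.10) with ethanol and from 3.94 to 7.26 (median 5.73) with DEX, overlapping too. AT2G47960 ranged from 5.82 to 6.29 with ethanol and from 5.63 to 7.73 with DEX.

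The DEX effect itself differed between vectors for 405 probe sets (1.78%; 175 higher in the empty vector, 0.769%, and 230 lower, 1.01%), among them 33 of the 51, each with the difference in the direction of the empty-vector response. The 33 were 28 of the rises and 5 of the falls. Because the 51 were chosen by the empty-vector effect, which is part of this difference, the choice favours both that direction and a high count. CML39 differed by 3.31 ± 0.39 (adjusted p = 5.51e-07), AT2G47950 by 2.99 ± 0.55 (adjusted p = 0.000874), AT1G21550 by 2.67 ± 0.39 (adjusted p = 2.94e-05), AT2G47960 by 2.31 ± 0.40 (adjusted p = 0.000312) and SBT3.3 by 2.01 ± 0.23 (adjusted p = 4.87e-07). Of the 24 named genes 16 differed. AT1G55210 rose by 2.00 in the empty vector and had 0.65 ± 0.28 in GR::bZIP1 cells, and this difference did not pass (adjusted p = 0.123), though it did over probe sets with a mean level over 4 (adjusted p = 0.038).

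The GR::bZIP1 arrays came from 2 preparations (Bioreps). CML39 had DEX effects of -0.73 ± 0.42 and -0.40 ± 0.43 in them, AT2G47950 of -0.12 ± 0.32 and 0.55 ± 0.75, and AT3G22060 of 0.85 ± 0.25 and 0.43 ± 0.51. None of these passed within a Biorep, and in both preparations they were below the rises of the empty vector. The empty-vector labels name no preparation, so vector and preparation cannot be told apart. The difference was fitted over all arrays of the series, those without CHX included. Without the arrays numbered 1, 2 or 3 in every arm, 405 became 195, 143 or 225, and 7, 6 or 16 of the 24 named genes were called. AT2G47950 was lost without those numbered 1 or 2 (adjusted p = 0.112 and 0.166), as was AT2G47960 (0.103 and 0.123).

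Some falls were seen with both vectors. AT5G64870 ranged from 12.21 to 12.72 with ethanol and from 11.78 to 12.39 with DEX in GR::bZIP1 cells, a fall by 0.32 ± 0.05 (adjusted p = 0.000164) beside 0.34 ± 0.04 in the empty vector. AT5G11070 had an effect of -0.76 ± 0.12 (adjusted p = 0.000367) beside -0.58 ± 0.08. The differences between vectors were -0.02 ± 0.15 and 0.18 ± 0.20. AT4G15150 had -0.62 ± 0.17 (adjusted p = 0.0525) in GR::bZIP1 cells, and AT1G11950 -0.14 ± 0.14, so the latter differed between vectors by -0.97 ± 0.23 (adjusted p = 0.0138). The unnamed probe set 258239_at moved in opposite directions, by 1.39 ± 0.33 in GR::bZIP1 cells (adjusted p = 0.0185). Within the 2 Bioreps its effect was 2.34 ± 0.35 (adjusted p = 0.0179) and 0.44 ± 0.27 (adjusted p = 0.963).

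**Figure D5:**
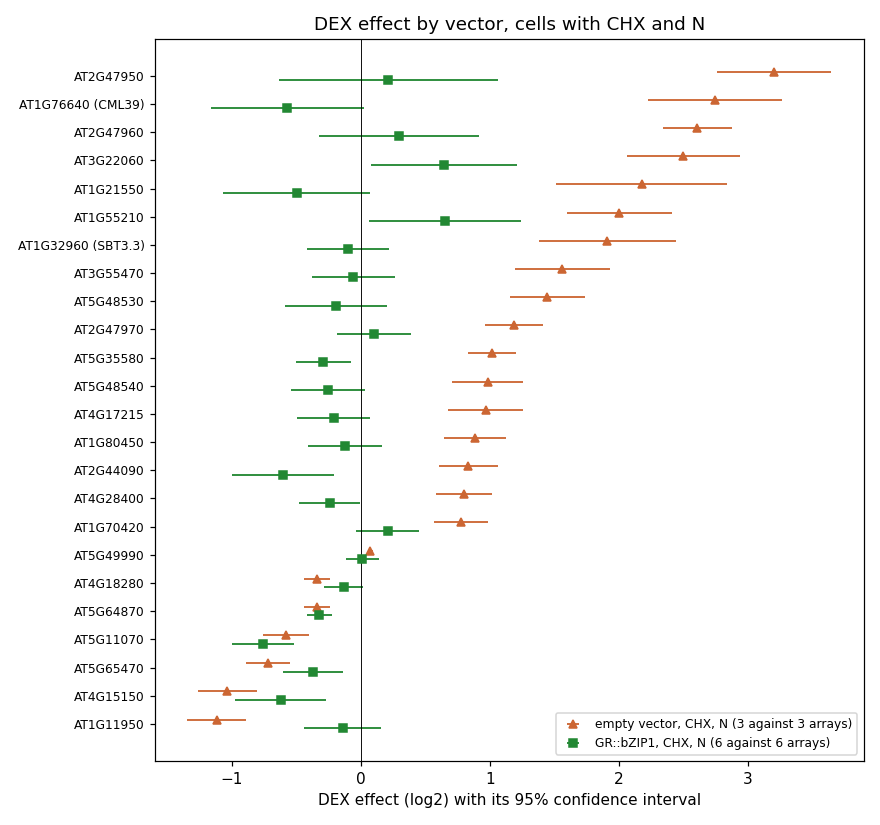
DEX effects (log2, point) with 95% confidence intervals are shown for the 24 named genes in empty-vector cells (triangles) and in GR::bZIP1 cells (squares), both with CHX and N. The 18 rises of the empty vector lie between -0.60 and 0.65 in GR::bZIP1 cells, and all 6 falls lie below 0 with both vectors.

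None of the 10 genes named for their response in GR::bZIP1 cells with CHX and N was called in the empty vector. Of all probe sets 0.224% were called there, so none in 10 is near that share and is given as a description. AT5G08350 rose by 4.41 in GR::bZIP1 cells with N and had 0.10 ± 0.28 in the empty vector, and the asparaginase gene ASPGB1 rose by 2.61 and had -0.08 ± 0.20. PYRB, of pyrimidine synthesis, rose by 1.62 in GR::bZIP1 cells and had -0.93 ± 0.18 in the empty vector (adjusted p = 0.157). Its arrays had 6.80, 6.92 and 7.08 with ethanol and 5.62, 6.27 and 6.11 with DEX in the empty vector, without overlap.

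In GR::bZIP1 cells without CHX, 371 probe sets were called with N (1.63%; 194 higher, 0.853%, and 177 lower, 0.778%). There 19 of the 51 (37.3%) had the same sign, beside 47.5% of the 9488 probe sets with a mean level over 4. Of the 51, 3 were called, 1 in the same direction and 2 in the opposite one. The one in the same direction was AT1G70420, at 0.77 (adjusted p = 0.0131). AT2G47950 had 0.68 (adjusted p = 0.196) and AT2G47960 had 0.06.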

How the data were processed

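RNA was amplified with the NuGEN Ovation Pico WTA system and hybridised to ATH1 arrays, per the labels. The authors deposited log2 values, and they summarised probe sets with GCRMA, per the submitters' processing notes (version not given). The lowest values of the 3 arms differ (2.287, 2.298 and 2.303), so the arms may have been summarised in separate runs, which is not given in the sources used here. All 47 columns were used as deposited, and 64 control probe sets were left out. Group means were fitted with limma 3.58.1 in R 4.3.3 (lmFit, eBayes, two-sided) over the 11 empty-vector arrays, with Benjamini-Hochberg adjustment over 22746 probe sets. Differences between vectors came from a fit of all 47 arrays, with and without CHX and N, with Biorep as covariate. Calls in GR::bZIP1 cells came from separate fits of the arm with CHX, with Biorep as covariate, and of the arm without CHX. Same-numbered arrays deviated together (correlation over 0.1) in 2 of 3 pairs with N and 8 of 15 empty-vector pairs. The main fit nevertheless left them unpaired, and a fit with the replicate block called 19 probe sets, 13 of them among the 51. In simulated data for the DEX effect with N (22746 probe sets, 150 changed at each size, pooled over runs), 16%, 50.7%, 80.7% and 86.7% of changes of 0.5, 1, 1.5 and 2 were called, and 5.39% of calls were false. The simulated arrays varied independently, without a floor, and changes were put only on probe sets with a mean over 4. These shares therefore need not hold for the deposited arrays. Members and lists were chosen with earlier results of these data known. Named genes have 1 locus: up to 15 rises and 15 falls past the threshold with groups that do not overlap, 5 for other results, up to 4 of each list by lowest p, and called neighbours. The 3 further called loci were named so that all 24 are given. Names came from a platform table and RefSeq (TAIR10.1), which name 13436 probe sets. Lists were matched through symbols, synonyms and fixed loci and are incomplete. Of 33 lists, 24 had a member. Alternatives changed normalization, filter, samples, blocks and moderation. Arrays hold no counts, so their number limits precision.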

Additional observations from a re-analysis of the deposited data

Results flagged for a closer look

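In GR::bZIP1 cells with CHX and N, 48 groups of 6 arrays (24 genes, with and without DEX) were searched for a single array far from the rest, and 7 held one. The rule flags about 1 in 20 groups drawn from a single normal distribution. These groups join both Bioreps, whose levels can differ (CML39 with ethanol, means of 5.32 and 6.91), so that rate need not hold here. With DEX these were 11.43 for AT2G47950 (others 8.99 to 9.78), 6.17 for AT1G21550 (others 4.88 to 5.23), 3.32 for SBT3.3 (AT1G32960; others 2.39 to 2.50) and 2.76 for AT5G49990. With ethanol they were 7.78 for AT5G48530 (others 6.90 to 6.97), 8.22 for AT4G17215 (others 8.43 to 8.53) and 2.88 for AT5G49990. Their cause was not tested.

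The effect of DEX in empty-vector cells, with N minus without N, was -0.31 for AT1G23300, -0.23 for ETP2 (AT3G18910) and -0.036 for AT5G60610, by limma's test of the difference. All 3 lie next to the floor.

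The DEX effect of the empty vector minus that of GR::bZIP1 cells, tested directly by limma, differed for 16 of 24 named genes. It was 3.31 for CML39 (AT1G76640), 2.99 for AT2G47950, 2.67 for AT1G21550, 2.31 for AT2G47960, 2.01 for SBT3.3, 1.85 for AT3G22060, 1.64 for AT5G48530 and 1.62 for AT3G55470. It was 1.44 for AT2G44090, 1.31 for AT5G35580, 1.23 for AT5G48540, 1.18 for AT4G17215, 1.09 for AT2G47970, 1.04 for AT4G28400, 1.01 for AT1G80450 and -0.97 for AT1G11950. Vector and preparation cannot be told apart in these differences, and the genes were chosen by the empty-vector effect, which is part of each difference.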

How the results depend on the processing

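The count of 51 calls was 64 with quantile normalization, 71 with median centring and 49 with eBayes trend and robust. It was 126 over probe sets with a mean over 4, 171 from all 47 arrays, 8 from the 6 arrays alone, 27 with at least 2-fold required and 19 with the replicate block, and 3 to 53 with arrays left out. The block changed other calls too: 5 of 24 named genes were called under it. No named gene changed sign in any of these fits. Only the changes of normalization could have turned a sign, since no named gene's groups overlapped. Without N the 106 calls became 52 with the replicate block, 197 over means above 4 and 2 to 788 with arrays left out. The 8 differences between N conditions became 1 with the replicate block (higher in 0), 2 with quantile normalization (both lower with N), 5 with median centring (2 higher with N, against 4 of 8), and 2 to 584 with arrays left out. Over means above 4 limma called 0, with 486 at an unadjusted p under 0.05, where trend and robust over all probe sets called 7. The 405 differences between vectors became 162 without the Biorep covariate, 516 with the replicate block (17 of 24 named genes in place of 16, adding AT1G55210 at an adjusted p of 0.0142) and 143 to 225 with arrays left out. With arrays left out, the GR::bZIP1 counts of 681 with CHX and 371 without became 287 to 386 and 44 to 53, and 371 became 757 over means above 4. The difference between vectors, 0.18 for AT5G11070 and -0.02 for AT5G64870, neither called, ranged from -0.061 to 0.32 and from -0.047 to 0.034 with the arrays of 1 number left out, turning sign at -0.061 and 0.034 without replicate 3, and was 0.067 for AT5G64870 with quantile normalization. Fits over fewer probe sets adjust over fewer tests, and fits of fewer arrays have fewer degrees of freedom. The filter for a mean over 4 also changed the standard errors of the DEX effect with N. They went from 0.0432 to 0.0949 for AT5G64870 and from 0.2829 to 0.2506 for AT1G21550. Of 22 named genes 2 lost the call under this filter, AT5G64870 and AT4G18280. The cause of the shifts was not tested.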
